A study of Mus musculus with 10 samples.

Results

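The comparison described here set RNA of FDB1 cells that carry the FI-Delta Y577F receptor mutant (called Y577F below) against RNA of FDB1 cells that carry the FI-Delta receptor mutant, with both lines growing in interleukin-3 (IL-3). Its arrays were chosen by their titles, which give time point 0 for both channels, and they are 3 of the 10 arrays of the series. Both lines were kept in medium that held mouse IL-3 (500 U/mL) and fetal calf serum (10%), and the factor was washed away at 0 h. Whether the 0 h RNA was taken before or after the washes is not given in the sources used here. The other 7 arrays compared the lines after 72 h without IL-3, or 72 h with 0 h within a line. They enter here only through the shared model and as values set beside those at 0 h. All groups carry a FI-Delta receptor and differ in the tyrosine that Y577F replaces, and both groups at 0 h also had IL-3. Whether each line is a clone or a pool of cells is not given in the sources used here. The design text gives 2 biological replicates for each line.

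IL-3, GM-CSF and IL-5 signal through receptors that share a common beta chain. This chain has no kinase of its own. Its partner JAK2 phosphorylates tyrosines in the cytoplasmic tail, which then dock adaptors and STAT proteins, and Tyr577 is known as a docking site for the adaptor Shc, which leads to Ras and ERK. FI-Delta is an activated form of the chain that signals without cytokine, and Y577F puts a phenylalanine in place of that tyrosine. FDB1 is a mouse myeloid line that proliferates in IL-3 and matures into granulocytes and macrophages under GM-CSF receptor signals.

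The values are the deposited log2 ratios of the channels of each spotted array. The direction is likely Cy5 over Cy3, since no label states it, and the opposite reading would reverse each sign reported here. On 0 h array 1 the FI-Delta RNA carried Cy5, and its sign was turned. On 0 h arrays 2 and 3 the Y577F RNA carried Cy5, and these arrays share an RNA labelled with number 4. Arrays 1 and 2 each have an RNA labelled with number 1, read here as FI-Delta. All values below read Y577F over FI-Delta. Over all features, array 1 stood apart from the others, with Pearson r of 0.09 with array 2 and -0.04 with array 3, while arrays 2 and 3 gave r = 0.36. These are correlations across features of arrays that share RNA extracts and, for arrays 2 and 3, the dye assignment. They are given as a description. The standard deviation of the deposited log2 ratios was 0.253, 0.232 and 0.275 on arrays 1, 2 and 3. Over the 375 empty and buffer spots it was 0.252, 0.265 and 0.236, so the bulk of the probes scattered about as much as spots without a gene. Ratios carry no level, so the labelled cell type could not be checked against its markers, and a change in the share of a cell type cannot be told apart from a change per cell.

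**Figure D1:**
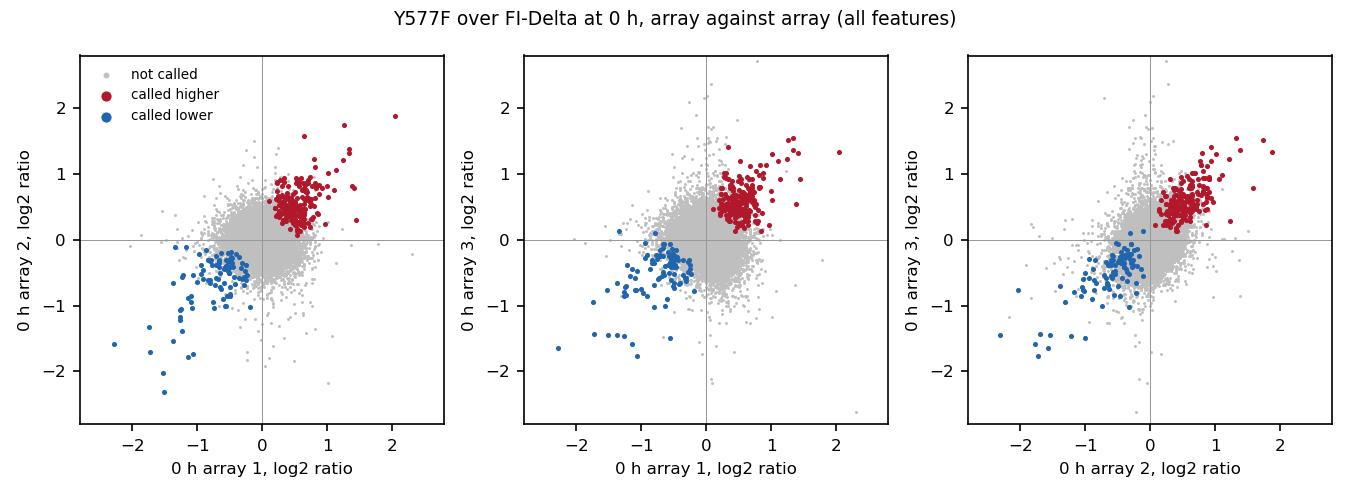
Log2 ratio of Y577F over FI-Delta at 0 h on each array (axes) against each other array, 1 point for each of 20243 features, with called features in red (higher) and blue (lower). The cloud of all features is round where array 1 is involved (r = 0.09 and -0.04). It is drawn out for arrays 2 and 3 (r = 0.36), which share a dye assignment. The called features lie along the diagonal in all panels, and the calls themselves rest on these arrays.

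Y577F cells in IL-3 had lower RNA for neutrophil granule proteins and higher RNA for MHC class II molecules. A few of the measured chemokine and cytokine genes were higher too. Of 20243 features tested, 287 (1.42%) passed an adjusted p under 0.05 by limma, of which 189 were higher (0.934% of all) and 98 lower (0.484% of all) in Y577F cells. Each count of called list members below is to be read beside these shares. The median difference of the called features was 0.52 on the log2 scale regardless of sign, and 9 were at least 2-fold higher and 15 at least 2-fold lower. The same sign on all 3 direct arrays was found for 285 of the 287, against 29% of all features, and the calls themselves rest on these arrays. The median standard error (SE) was 0.0871 on the log2 scale, the median difference over all features was -0.006, and 2453 features had an unadjusted p under 0.05.

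More calls were lost without array 1 than without any other single array. Array 1 is also the only 0 h array with FI-Delta in Cy5, so without it the direct arrays left share a dye assignment. The median SE was then 0.119, against 0.0991 without array 2 and 0.0948 without array 3. A call lost without array 1 thus need not mean a smaller difference. Without 0 h array 1, 57 features were called (29 higher, 28 lower), without array 2 151 and without array 3 164, and all 57, 143 of the 151 and 152 of the 164 were among the 287. Without the array of the lines at 72 h that has FI-Delta in Cy5 (72 h array 1), 171 were called. With a replicate block, a coefficient for each RNA extract in place of each group, 22 were called, 9 higher and 13 lower. The 3 direct arrays alone gave 46 calls without a dye term and 110 with it. In each of these settings all 287 features kept the direction of their difference, although the settings refit arrays on which the 287 were picked.

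**Figure D2:**
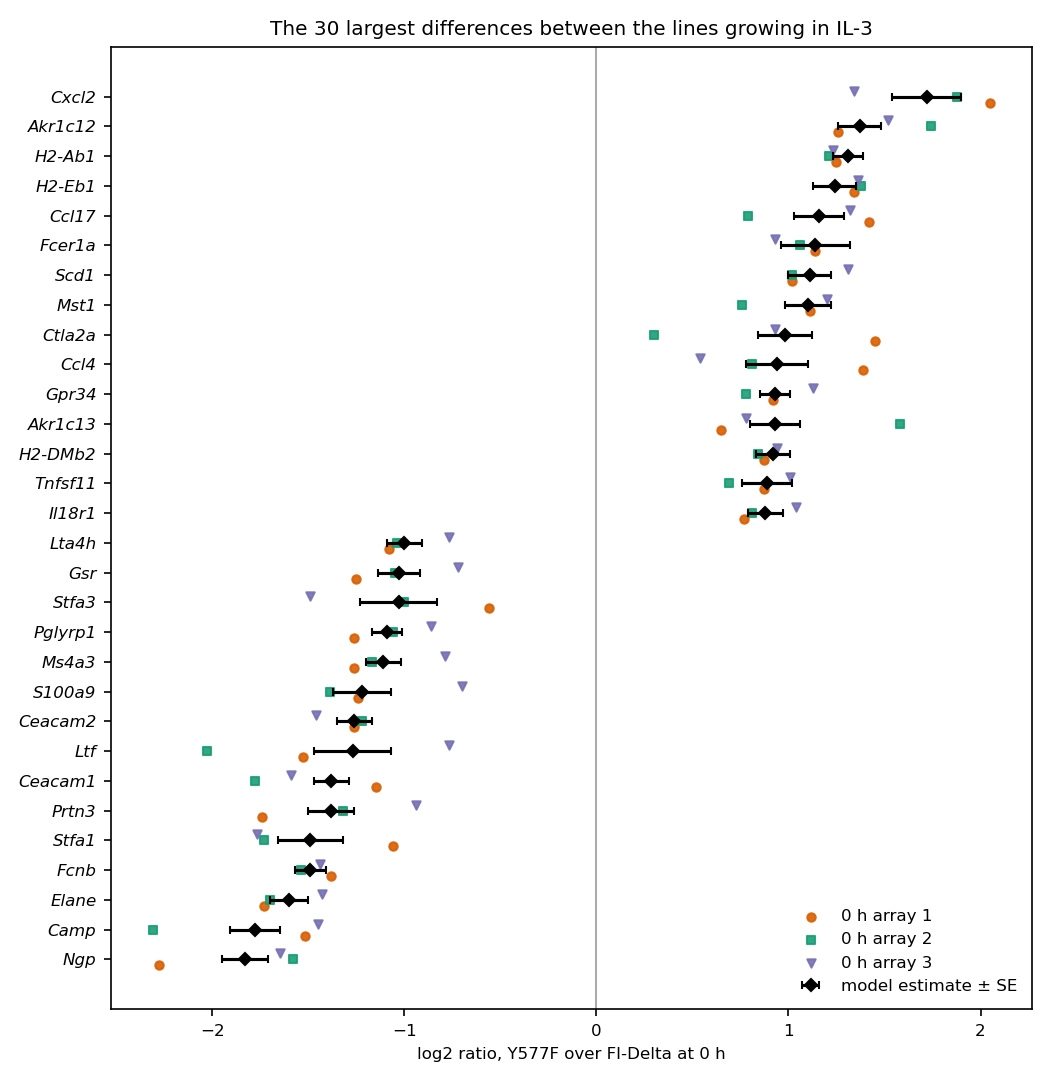
The 15 most positive and 15 most negative log2 ratios (x axis, Y577F over FI-Delta at 0 h) among called genes with the same sign on all 3 arrays. Coloured points are the 3 arrays and black diamonds the model estimate with its SE. The estimates run from -1.83 for Ngp to 1.72 for Cxcl2. That no coloured point crosses 0 follows from the choice of genes.

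Secondary and tertiary granules hold antimicrobial proteins and matrix proteases that neutrophil precursors make late in maturation, and this group held the lowest of the called values. Of its 23 measured genes, 10 were lower and 1 higher in Y577F cells, with a median of -0.33. Ngp, neutrophilic granule protein, read -2.28, -1.58 and -1.65 on arrays 1, 2 and 3. The estimate was -1.83 ± 0.12 (SE; limma, adjusted p = 3.09e-05), a 3.54-fold lower RNA. Camp, the cathelicidin antimicrobial peptide, read -1.52, -2.31 and -1.45, with an estimate of -1.78 ± 0.13 (limma, adjusted p = 5.32e-05). Both genes were lower on every array by more than 1 log2 unit.

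Fcnb, which encodes ficolin B, a lectin that binds microbial sugars, read -1.38, -1.54 and -1.44 (estimate -1.49 ± 0.08, limma adjusted p = 1.43e-05). Ltf, the iron-binding lactoferrin, varied most, from -2.03 on array 2 to -0.77 on array 3. Its estimate of -1.27 ± 0.20 passed the test (limma, adjusted p = 0.00859) but not without array 1 (-1.10, adjusted p = 0.224). Pglyrp1, a peptidoglycan-binding protein, read -1.26, -1.06 and -0.86 (estimate -1.09 ± 0.08). Lower as well were the gelatinase Mmp9 (-0.83 ± 0.09), the siderophore-binding lipocalin Lcn2 (-0.79 ± 0.09), Lrg1 (-0.64 ± 0.08), the integrin chain Itgam (-0.46 ± 0.09) and the histone deiminase Padi4 (-0.44 ± 0.09). The member that went the other way was Fpr2, a formyl peptide receptor, at 0.54, 0.90 and 0.93 (estimate 0.69 ± 0.12, limma adjusted p = 0.0188). The 12 members that did not pass ranged from -0.54 for the collagenase Mmp8 to 0.19 for the oxidase subunit Cybb, and Csf3r, the G-CSF receptor, read -0.41, 0.07 and 0.06. Without array 1, 6 of the 10 lower calls and no higher call were made, and with the replicate block 4 and 0. Fpr2 also lost its call without array 2, array 3 or the Y577F time array numbered 4.

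Primary granules form earlier, in promyelocytes, and hold serine proteases and peroxidase. Of 14 measured genes, 5 were lower and none higher at 0 h, and the median was -0.27. Elane, neutrophil elastase, read -1.73, -1.70 and -1.43 (estimate -1.60 ± 0.10, limma adjusted p = 2.42e-05), 3.03-fold lower. Prtn3, proteinase 3, read -1.74, -1.32 and -0.94 (estimate -1.38 ± 0.12). Ms4a3, a membrane protein of granulocyte precursors, read -1.26, -1.17 and -0.79 (estimate -1.11 ± 0.09), and Ctsg, cathepsin G, read -1.14, -0.88 and -0.44 (estimate -0.90 ± 0.09). Mpo, the peroxidase, showed the smallest called difference at -0.71, -0.58 and -0.24 (estimate -0.59 ± 0.08, limma adjusted p = 0.004). In Prtn3, Ms4a3, Ctsg and Mpo the reading was deepest on array 1 and mildest on array 3, and in none did an array reach 0. The lysozymes Lyz1 and Lyz2, which macrophages also make, did not pass, at -0.27 ± 0.15 and -0.05 ± 0.12. The count of lower members was 4 to 6 when single arrays were left out and 3 with the replicate block.

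Stefin A proteins inhibit cysteine proteases, and S100a8 and S100a9 form calprotectin, an abundant protein of the neutrophil cytoplasm. Of 9 measured genes, 5 were lower and none higher, with a median of -0.78. Stfa1 read -1.06, -1.73 and -1.77 (estimate -1.49 ± 0.17, limma adjusted p = 0.00141), Stfa3 read between -0.56 on array 1 and -1.49 on array 3 (estimate -1.03 ± 0.20) and Stfa2 read -0.74, -1.03 and -0.60 (estimate -0.78 ± 0.16). S100a9 read -1.24, -1.39 and -0.70 (estimate -1.22 ± 0.15) and S100a8 -0.76, -0.94 and -0.29 (estimate -0.81 ± 0.15). The 4 other S100 genes lay between -0.23 for S100a11 and -0.05 for S100a4 and S100a10, and none passed. The stefin A genes are close copies and their probes may share signal, so they are not 3 separate measurements. The count of lower members fell to 2 without array 2, without 72 h array 1 or without the Y577F time array numbered 4, to 3 without array 3 and to 1 with the replicate block.

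Other genes among the 15 lowest belong to no granule list. Ceacam1 and Ceacam2, related adhesion molecules whose probes may share signal, read -1.15, -1.78 and -1.59 and -1.26, -1.22 and -1.46 (estimates -1.38 ± 0.09 and -1.26 ± 0.09). Gsr, glutathione reductase, read -1.25, -1.05 and -0.72 (estimate -1.03 ± 0.11), and Lta4h, the enzyme that makes leukotriene B4, read -1.08, -1.04 and -0.77 (limma, adjusted p = 0.000232). Of 44 integrin, selectin and adhesion genes, 4 were lower, both Ceacam genes with Itgam and Cd44, and 3 were higher, Itga2b, Cd48 and Selplg. Without array 1 these counts were 2 lower and 1 higher, and Cd44 was not called (-0.50, limma adjusted p = 0.187). The probes of Cd44 gave -0.45 ± 0.11 and -0.61 ± 0.07. Arsb, a lysosomal sulfatase, was lower by its 3 probes (-0.84, -0.54 and -1.01), the only lower call among 48 lysosome genes.

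Granule genes are known targets of C/EBP factors, so the RefSeq promoters of the group (250 bases before to 50 after the start, build GRCm38.p6) were searched for TTGCNNAA on both strands, a shortened C/EBP site. It stood in 7 of the 18 secondary and tertiary granule genes with a promoter in the table, among them 4 of the 10 that were called (Ltf, Ngp, Lcn2 and Fcnb). Of 12 primary granule genes 3 held it, among them 1 of the 5 that were called (Ms4a3), while Cst7 and Lyz1 were not called. The motif stood in 11% of the 11755 genes on the array with a promoter and in 10.8% of all 32851 promoters. The promoters of Ngp and Fcnb are shown because both were lower on every array and each holds 2 matches, in capitals. In Ngp they begin 138 and 11 bases before the start and in Fcnb 235 and 123 bases before it. Ngp lies at chr9:110419558-110419857 (plus strand) and Fcnb at chr2:28084829-28085128 (minus strand).
Ngp: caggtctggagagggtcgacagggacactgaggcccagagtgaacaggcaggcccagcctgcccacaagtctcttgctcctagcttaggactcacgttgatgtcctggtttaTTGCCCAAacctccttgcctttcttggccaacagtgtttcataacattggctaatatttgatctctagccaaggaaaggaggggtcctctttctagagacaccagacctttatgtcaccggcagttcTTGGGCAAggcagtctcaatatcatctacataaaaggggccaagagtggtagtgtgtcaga
Fcnb: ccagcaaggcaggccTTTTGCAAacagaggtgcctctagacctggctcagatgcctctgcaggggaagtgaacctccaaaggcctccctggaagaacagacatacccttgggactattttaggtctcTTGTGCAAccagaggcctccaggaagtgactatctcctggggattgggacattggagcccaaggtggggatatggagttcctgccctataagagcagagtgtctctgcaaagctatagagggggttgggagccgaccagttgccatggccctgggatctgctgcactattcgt
The matches describe letters in these windows, and binding was not measured.

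MHC class II molecules present peptides to CD4 T cells and are made by dendritic cells, B cells and stimulated macrophages. Of 12 measured genes, 8 were higher in Y577F cells and none lower, with a median of 0.60. H2-Ab1, the beta chain of I-A, read 1.25, 1.21 and 1.23, and its estimate was 1.31 ± 0.08 (limma, adjusted p = 2.61e-05), 2.47-fold higher. H2-Eb1, the beta chain of I-E, read 1.34, 1.38 and 1.36 (estimate 1.24 ± 0.11, limma adjusted p = 0.000292). H2-Aa, the alpha chain that pairs with H2-Ab1, read lower on each array at 0.54, 0.91 and 0.72 (estimate 0.67 ± 0.09), although ratios of different probes are not on a common scale.

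The chaperones that load and edit the peptide were higher too. H2-DMb2 read 0.87, 0.84 and 0.94 (estimate 0.92 ± 0.09), H2-DMb1 0.53, 0.48 and 0.86 (estimate 0.62 ± 0.08) and H2-DMa 0.68, 0.75 and 0.44 (estimate 0.54 ± 0.10). H2-Ob and H2-Oa, subunits of the inhibitor of that chaperone, read 0.71, 0.91 and 0.92 and 0.58, 0.53 and 0.57 (estimates 0.85 ± 0.10 and 0.57 ± 0.07). The members that did not pass were Cd74, the invariant chain (0.36 ± 0.09), H2-Ea (0.50 ± 0.13), H2-Eb2 (-0.05 ± 0.08) and Ciita, the master activator of the class II genes, which read -0.11, 0.76 and 0.61 (estimate 0.34 ± 0.15, limma adjusted p = 0.381). Class II genes resemble each other and probes may share signal. Without array 1, 5 of the genes were called, and with the replicate block 1, H2-Ab1, while H2-Eb1 was at 1.18 (limma, adjusted p = 0.0637 with the block).

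Among 19 MHC class I and peptide loading genes, H2-Q7 (0.71, 0.62 and 0.83, estimate 0.69 ± 0.08) and H2-Q10 (0.33, 0.57 and 0.64, estimate 0.49 ± 0.09) were higher and none was lower, with a median of 0.10. H2-Q10 lost its call without any single 0 h array or 72 h array 1 (0.45 to 0.57, limma adjusted p 0.056 to 0.121). None of 38 interferon-stimulated genes passed by limma (11 at an unadjusted p under 0.05). With 1.42% of all features called, a list of this length holds few calls or none. The median of the interferon-stimulated genes was 0.13, with 30 of 38 positive. The largest was the transcription factor Irf7 at 0.42, 0.54 and 0.57 (estimate 0.55 ± 0.14, limma adjusted p = 0.104). Irf7 passed without 72 h array 2 (0.59, limma adjusted p = 0.0196), and the list also held 1 call with array weights and 1 with quantile normalization.

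Class II promoters carry conserved X and Y boxes, on which the RFX and NF-Y factors and CIITA assemble. The Y box was searched as CTGATTGG, which contains an inverted CCAAT, and a core of the X box as GCAACNG, both on both strands. Of the 8 class II genes with a promoter in the table, 4 held the Y box (H2-Aa, H2-Eb1, H2-Eb2 and H2-Oa), against 5.86% of the 11755 genes on the array with a promoter (4.1% of all 32851 promoters), and 2 held the X core (H2-Eb1 and H2-Eb2), against 14.6% of genes (12.7% of promoters). H2-Eb2 thus held both without a call. The 3 called genes with a Y box are shown, with the matches in capitals. The Y box begins 62 bases before the start in H2-Eb1, 51 in H2-Aa and 46 in H2-Oa, and the X core of H2-Eb1 begins 91 bases before the start. The windows are chr17:34305617-34305916 (plus strand) for H2-Eb1, chr17:34287774-34288073 (minus strand) for H2-Aa and chr17:34092129-34092428 (plus strand) for H2-Oa.
H2-Eb1: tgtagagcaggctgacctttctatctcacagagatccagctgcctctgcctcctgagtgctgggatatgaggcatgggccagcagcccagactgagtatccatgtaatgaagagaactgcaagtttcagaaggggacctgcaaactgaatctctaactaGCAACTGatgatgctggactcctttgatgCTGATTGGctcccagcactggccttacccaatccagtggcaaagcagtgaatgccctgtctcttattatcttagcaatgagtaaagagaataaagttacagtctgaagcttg
H2-Aa: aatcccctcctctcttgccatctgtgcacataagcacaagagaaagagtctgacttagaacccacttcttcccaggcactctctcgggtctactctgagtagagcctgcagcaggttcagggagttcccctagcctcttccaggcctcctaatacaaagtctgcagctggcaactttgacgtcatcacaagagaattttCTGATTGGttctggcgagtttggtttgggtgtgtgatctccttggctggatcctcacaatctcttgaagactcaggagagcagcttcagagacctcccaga
H2-Oa: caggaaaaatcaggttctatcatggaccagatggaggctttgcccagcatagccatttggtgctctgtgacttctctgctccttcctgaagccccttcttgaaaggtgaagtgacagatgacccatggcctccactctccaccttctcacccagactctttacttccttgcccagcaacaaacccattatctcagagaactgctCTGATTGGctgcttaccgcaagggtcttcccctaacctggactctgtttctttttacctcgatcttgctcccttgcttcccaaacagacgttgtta
Other forms of the boxes were not searched, so no match says only that these letters are not in the window.

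The largest positive difference among the called genes was that of a chemokine. Cxcl2, a chemokine that draws in neutrophils, read 2.05, 1.88 and 1.34 (estimate 1.72 ± 0.18, limma adjusted p = 0.000679), 3.29-fold higher in Y577F cells. Ccl17, a chemokine for T helper cells, read 1.42, 0.79 and 1.32 (estimate 1.16 ± 0.13), and Ccl4, a chemokine for monocytes and T cells, read 1.39, 0.81 and 0.54 (estimate 0.94 ± 0.16). These were the 3 higher of 54 chemokine and receptor genes (5.56% called, against 1.42% of all features), none was lower, and the median was 0.01. Ccl4 lost its call without array 1 (0.57, limma adjusted p = 0.266). Its neighbour in function, Ccl3, read 1.23, 0.16 and 1.05 and did not pass (0.78 ± 0.19, limma adjusted p = 0.0892).

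Of 67 cytokine and receptor genes, 6 were higher and none lower (8.96% called, against 1.42% of all features), with a median of 0.00. Il18r1 and Il18rap, the chains of the IL-18 receptor, read 0.77, 0.81 and 1.04 and 0.42, 0.52 and 0.52 (estimates 0.88 ± 0.09 and 0.50 ± 0.08). Il6 (0.48 ± 0.10) and Il4 (0.40 ± 0.09) were higher by less. The receptor chains Csf2rb2 and Il3ra were the others, and they are counted again among the receptor signalling genes below. Of 37 TNF superfamily genes, 4 were higher and none lower (10.8% called). Tnfsf11, which encodes RANKL, read 0.87, 0.69 and 1.01 (estimate 0.89 ± 0.13), Lta, lymphotoxin alpha, 0.63, 0.87 and 0.67 (estimate 0.70 ± 0.08) and Tnf itself 0.55, 0.50 and 0.56 (estimate 0.46 ± 0.09). The 2 probes of Tnfrsf9, the receptor 4-1BB, disagreed at 1.29 ± 0.12 and -0.07 ± 0.13, so its mean of 0.61 stands for neither. Without array 1 the counts fell from 6 to 1 cytokine gene and from 4 to 1 TNF gene, and Il6 and Tnf were not called without any single 0 h array (limma, adjusted p 0.0871 to 0.501). Without array 2 or array 3, 2 cytokine genes were called, and without 72 h array 1, the Y577F time array numbered 4 or the FI-Delta time array of culture 1, 3 were called. TNF genes numbered 2 without array 3 or 72 h array 1.

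Components of the receptor pathway itself were mostly near 0. Csf2rb2, the mouse beta chain used only by the IL-3 receptor, read 0.48, 0.43 and 0.57 (estimate 0.48 ± 0.08, limma adjusted p = 0.0118), a 1.4-fold higher RNA. Il3ra, the alpha chain that binds IL-3, read 0.24, 0.66 and 0.54 (estimate 0.38 ± 0.08), and the kinase Jak2 read 0.35, 0.30 and 0.29 (estimate 0.34 ± 0.07). These were the 3 higher of 40 GM-CSF receptor signalling genes (7.5% called, against 1.42% of all features), with none lower and a median of -0.00. All 3 lost the call without any single 0 h array (adjusted p 0.0538 to 0.359 by limma). Without 72 h array 1, the Y577F time array numbered 4 or the FI-Delta time array of culture 1, 1 of them was called. The alpha chain of the GM-CSF receptor, Csf2ra, read -0.20, 0.31 and -0.15 (estimate -0.07 ± 0.09). The adaptor genes Shc1, Grb2 and Gab2 did not pass, with Shc1 at 0.02 ± 0.11, Grb2 at -0.02 ± 0.08 and Gab2 at -0.08 ± 0.08. Csf2rb, the shared mouse beta chain, had no probe under its symbol, and no probe was set against the mutant receptor itself.

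Of 21 STAT5 and cytokine feedback targets, 3 were higher and none was lower, and the median was 0.10. The 3 encode SOCS proteins, inhibitors that JAK-STAT signals induce. Socs1 read 0.33, 0.94 and 1.41 (estimate 0.82 ± 0.14, limma adjusted p = 0.011), Socs3 0.73, 0.57 and 0.60 (estimate 0.59 ± 0.08) and Socs2 0.51, 0.38 and 0.38 (estimate 0.41 ± 0.09, limma adjusted p = 0.049). Cish, a related inhibitor and a known STAT5 target, read 0.22, 0.38 and 0.38 without passing (estimate 0.29 ± 0.07, limma adjusted p = 0.0729). Socs1 spread by more than 1 log2 unit between arrays, and Socs2 stood at the threshold and lost its call without any single 0 h array. Without array 1, Socs1 alone of the 3 was called. Among 41 ERK and immediate-early genes, none passed by limma in either direction, and 6 had an unadjusted p under 0.05. Over all 20243 features, 287 (1.42%) passed and 2453 had an unadjusted p under 0.05. At that share a list of this length holds few calls or none, so the count is no result about ERK. Values ran from -0.24 for the phosphatase Dusp4 (± 0.10) to 0.29 for the transcription factor Klf6 (± 0.09), with a median of 0.05.

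ATF4 is a transcription factor that is translated when amino acids run short or the endoplasmic reticulum is stressed, and it raises genes for amino acid synthesis, uptake and tRNA charging. Of 31 genes of this list, 8 were higher and none lower (25.8% called, against 1.42% of all features), with a median of 0.22. Atf4 itself read 0.50, 0.52 and 0.56 (estimate 0.56 ± 0.08, limma adjusted p = 0.004). Ddit3, the stress factor CHOP, read 0.67, 0.72 and 0.73 (estimate 0.59 ± 0.10), and Ppp1r15a, which restores translation, read 0.40, 0.65 and 0.89 (estimate 0.66 ± 0.09). Stc2, Trib3, Eif4ebp1, Aldh18a1 and Mthfd2 lay between 0.40 and 0.50. Asns, asparagine synthetase, read 0.34, 0.36 and 0.46 without passing (0.36 ± 0.09, limma adjusted p = 0.0883), and Phgdh, the entry enzyme of serine synthesis, read -0.52, 0.00 and 0.22.

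Of 28 aminoacyl-tRNA synthetase genes, Yars (0.46, 0.39 and 0.68, estimate 0.51 ± 0.09), Nars (0.43 ± 0.09) and Lars (0.42 ± 0.08) were higher and none was lower, and the median was 0.08. Of 26 amino acid transporter genes, 4 were higher and none lower. The shares called were 10.7% of the synthetases and 15.4% of the transporters, against 1.42% of all features. Slc7a8 read 0.27, 0.91 and 0.96 (estimate 0.65 ± 0.08), Slc3a2, the heavy chain shared by several transporters, 0.60, 0.47 and 0.69 (estimate 0.60 ± 0.08), Slc1a4 0.51, 0.23 and 0.66 (estimate 0.59 ± 0.11) and Slc1a5, a glutamine carrier, 0.31, 0.25 and 0.54 (estimate 0.35 ± 0.08). Among 30 unfolded protein and heat shock genes, Sdf2l1 was lower (-0.39 ± 0.08, limma adjusted p = 0.0438) and none was higher. These differences were small and the calls fragile. Without array 1, 2 genes of the ATF4 list, no synthetase and 1 transporter were called, without array 3 these were 3, 0 and 2, and with the replicate block none of them was. Synthetases numbered 1 without array 2, 72 h array 1 or the FI-Delta time array of culture 2 with 72 h RNA in Cy5, and transporters 2 without 72 h array 1 or the other FI-Delta time array of culture 2. Sdf2l1 lost its call in 9 of the 10 fits that left out an array (adjusted p 0.0578 to 0.532 by limma where lost). Slc1a5 lost its call in all 10 (adjusted p 0.0578 to 0.407 by limma), and at most 3 transporters were called in any of them. An ATF4 element, TGATGNAAT, was searched on both strands. It stood in 2 of the 29 genes of the ATF4 list with a promoter in the table (Nupr1 and Fgf21), in 3 of 20 synthetases (Aars, Gars and Iars) and in 0 of 19 transporters, against 0.834% of the genes on the array with a promoter (0.965% of all promoters). None of these 5 genes was called, and 0 of the 7, 1 and 3 called genes with a promoter held it.

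Markers of other blood cells were counted as a description. The counts stand beside the 1.42% of all features that were called, 0.934% higher and 0.484% lower. Of 35 monocyte and macrophage markers, 5 were higher and none lower, with a median of 0.06. Mmp12, the macrophage elastase, read 0.80, 0.51 and 0.46 (estimate 0.67 ± 0.10), Clec7a, the beta-glucan receptor Dectin-1, 0.51, 0.72 and 0.55 (estimate 0.59 ± 0.08) and Ctss, the protease cathepsin S, which trims the invariant chain, 0.62, 0.65 and 0.56 (estimate 0.56 ± 0.08). Clec4e (0.55 ± 0.10) and Adgre1, an adhesion receptor of macrophages (0.45 ± 0.07), were the others. Cd14 read 0.66, 0.45 and 0.61 without passing (0.49 ± 0.12, limma adjusted p = 0.0785), and Cd68, Cx3cr1 and Irf8 were at 0.11 ± 0.08, 0.06 ± 0.09 and 0.02 ± 0.07. Without array 1 none of the 5 was called.

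Of 23 mast cell and basophil markers, 5 were higher and 1 lower, with a median of 0.18. Fcer1a, the alpha chain of the IgE receptor, read 1.14, 1.06 and 0.93 (estimate 1.14 ± 0.18, limma adjusted p = 0.00859), the protease Gzmb 0.83, 0.78 and 1.14 (estimate 0.86 ± 0.11) and Cpa3, mast cell carboxypeptidase, 0.22, 0.74 and 0.69 (estimate 0.49 ± 0.09). The others were Ccl4 and Il4, which stand in other lists too. Hdc, which makes histamine, was lower at -0.51, -0.50 and -0.34 (estimate -0.47 ± 0.07). The mast cell proteases Mcpt1, Mcpt2, Mcpt4, Mcpt8 and Cma1 and the receptor Kit did not pass, and lay between -0.11 and 0.23. Without array 1 none of these 6 was called, without array 3, 72 h array 1 or the Y577F time array numbered 4 3 were called higher, and without array 2 Hdc was not called.

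None of 8 eosinophil markers passed by limma (4 at an unadjusted p under 0.05), which says little where 1.42% of all features were called. Their values ran from -0.30 for Prg3 to 0.30 for Alox15, which read 0.01, 0.19 and 1.02. Of 26 erythroid and megakaryocyte markers, 2 were higher, Itga2b, a platelet integrin (0.30, 0.81 and 0.94, estimate 0.61 ± 0.09), and the transcription factor Tal1 (0.40, 0.52 and 0.66, estimate 0.49 ± 0.07), and none was lower. Of 32 lymphoid and dendritic cell markers, Klrd1 (0.53 ± 0.08) and Vpreb1 (0.38 ± 0.08) were higher and none was lower. Of 61 blood transcription factors, Id3 (0.79, 1.23 and 0.29, estimate 0.79 ± 0.13) and Tal1 were higher and none was lower. The shares called were 7.69% of the erythroid, 6.25% of the lymphoid and 3.28% of the transcription factor list, on 2 genes each. Without array 1, Tal1 (adjusted p = 0.166 by limma), Id3 (0.187), Klrd1 (0.221) and Vpreb1 (0.51) were not called. Without several other arrays in turn 1 of the pair Klrd1 and Vpreb1 was called.

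**Figure D3:**
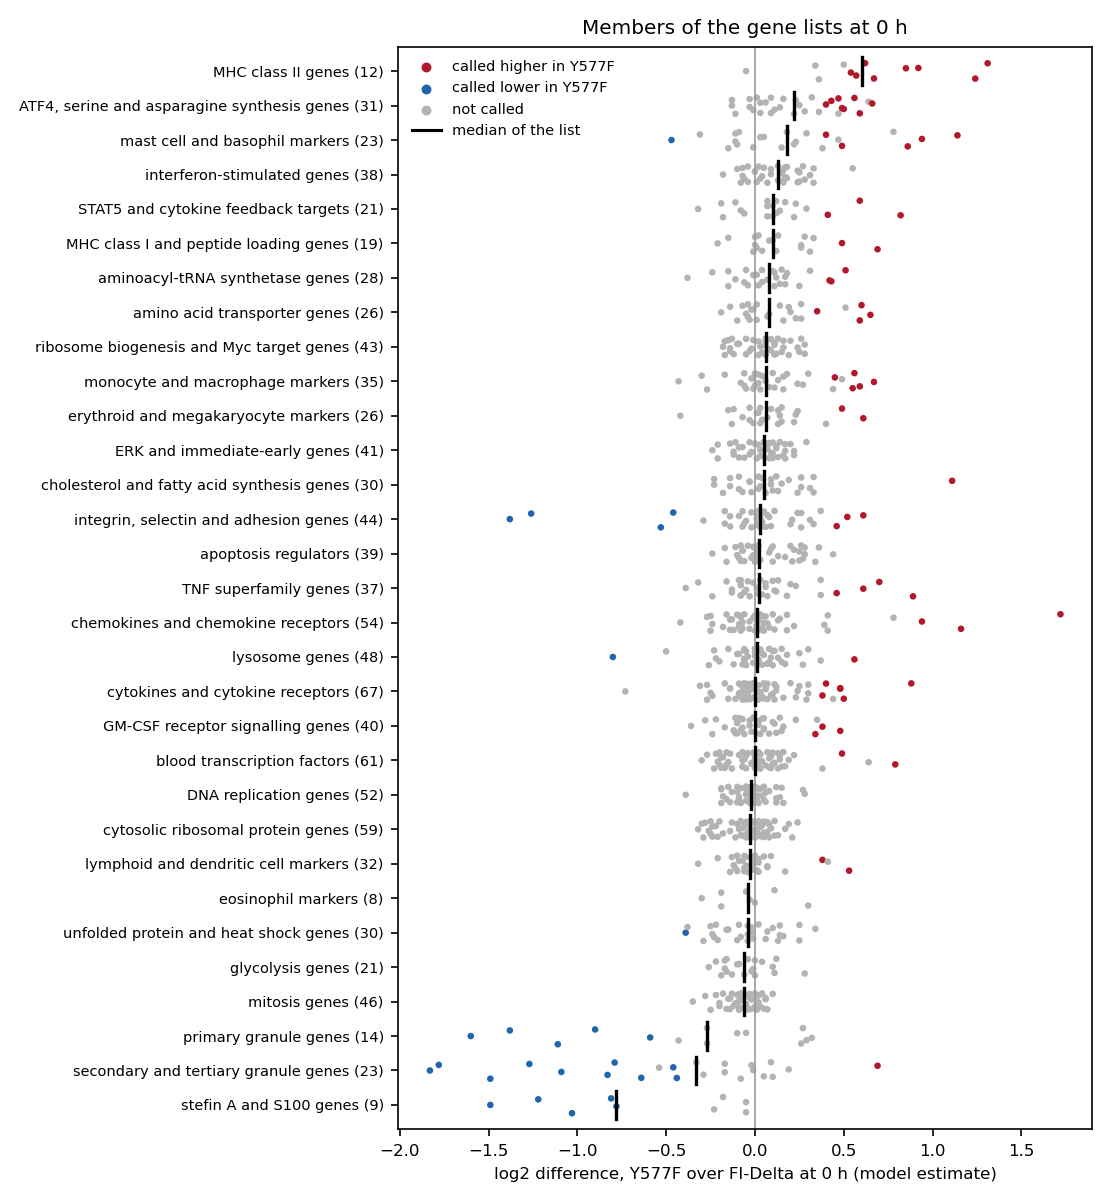
Log2 difference between the lines at 0 h (x axis, model estimate) for each measured gene of the 31 lists (y axis, number of genes in brackets), with called genes in red (higher) or blue (lower) and the median of each list as a black bar. The medians run from -0.78 for stefin A and S100 genes to 0.60 for MHC class II genes, and most others lie near 0.

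The lists for growth and metabolism are read against the 1.42% of all features that were called, a share at which lists of this length hold few calls or none. None of 46 mitosis genes (median -0.06), 43 genes of ribosome biogenesis and Myc targets (0.06), 52 DNA replication genes (-0.02), 59 cytosolic ribosomal protein genes (-0.03), 21 glycolysis genes (-0.06) or 39 apoptosis regulators (0.02) passed by limma. At an unadjusted p under 0.05 these lists had 6, 5, 2, 11, 3 and 12 genes in the same order. Without the Y577F time array numbered 4, 1 apoptosis regulator was called higher and 1 ribosomal protein gene lower, and array weights gave 2 higher apoptosis regulators. The mitosis genes ran from -0.35 for the kinesin Kif2c to 0.10. Scd1, which puts a double bond into stearate, was higher at 1.02, 1.02 and 1.31 (estimate 1.11 ± 0.11, limma adjusted p = 0.000426). It was the single call among 30 cholesterol and fatty acid synthesis genes, whose median was 0.05.

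Further genes among the 15 highest stand in no list. Akr1c12 and Akr1c13, related aldo-keto reductases whose probes may share signal, read 1.26, 1.74 and 1.52 and 0.65, 1.58 and 0.78 (estimates 1.37 ± 0.11 and 0.93 ± 0.13). Mst1, a hepatocyte growth factor-like protein, read 1.11, 0.76 and 1.20 (estimate 1.10 ± 0.12), and Gpr34, a lysophospholipid receptor, 0.92, 0.78 and 1.13 (estimate 0.93 ± 0.08). Ctla2a, a cysteine protease inhibitor, spread most, at 1.45, 0.30 and 0.93 (estimate 0.98 ± 0.14), and lost its call without array 1 (0.79, limma adjusted p = 0.15). Akr1c13 lost it too, narrowly (1.01, limma adjusted p = 0.0511). Of the 71 named genes that were called, 19 were called under all 21 alternative settings, among them Ngp, Camp, Elane, Fcnb, Prtn3, Ms4a3, Pglyrp1, Stfa1, H2-Ab1, Cxcl2, Ccl17, Scd1, Akr1c12, Mst1 and Gpr34.

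**Figure D4:**
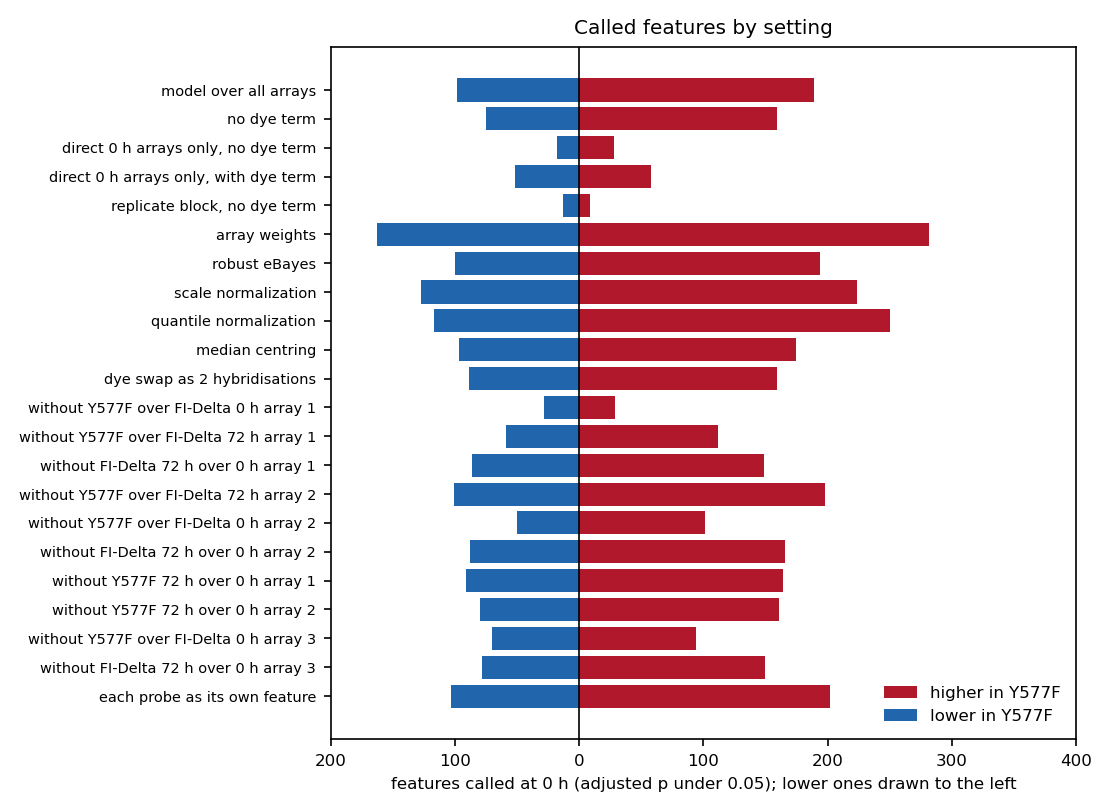
Number of features called at 0 h (x axis, adjusted p under 0.05, limma), higher in Y577F cells to the right and lower to the left, under the model over all arrays and each of 21 alternative settings (y axis). The counts are 189 and 98 in the model, 29 and 28 without 0 h array 1, and 9 and 13 with the replicate block.

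The same lines were also compared 72 h after IL-3 was removed. The 0 h and 72 h differences were estimated in a single fit and share arrays, so their values are set side by side, and the change between them was tested as a contrast. At 72 h, 2609 features (12.9%) were called, 1304 higher (6.44%) and 1305 lower (6.45%). The change of the difference was called in 1871 (9.24%), upward in 877 (4.33%) and downward in 994 (4.91%). Of the 189 features higher at 0 h, the difference had widened at 72 h in 54 and was smaller or turned in 40. Of the 98 lower at 0 h, it had widened in 59 and was smaller or turned in 7. The remaining 95 and 32 had no call for the change.

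Of the secondary and tertiary granule genes, 13 of 23 had a called change downward and 4 upward, and of the primary granule genes 7 of 14 downward and 2 upward. Ngp went from -1.83 to -3.59, Camp from -1.78 to -3.94, Ltf from -1.27 to -3.48 and Elane from -1.60 to -3.16, each with a called change. Of the 12 MHC class II genes, 9 had a called change upward and none downward, with H2-Ab1 going from 1.31 to 2.98, H2-Eb1 from 1.24 to 3.29 and H2-Aa from 0.67 to 3.03, and Cd74, not called at 0 h, was at 1.46 at 72 h. Mmp12 went from 0.67 to 2.83 and Gzmb from 0.86 to 2.79. Of the 23 mast cell and basophil markers, which include Gzmb, 5 had a called change upward and 3 downward. Their median at 72 h was 0.16. Of the 31 genes of the ATF4 list, 14 had a called change downward and 1 upward, and of the 28 synthetases 8 downward and none upward. Atf4 went from 0.56 to -0.58 (change -1.14, limma adjusted p = 5.12e-05), Yars from 0.51 to -0.64 and Lars from 0.42 to -0.70, while Trib3 and Ddit3 were at -0.19 and -0.03 at 72 h. Scd1 (1.11 to -0.23) and Tnfsf11 (0.89 to -0.05) also had a called change toward 0. Cxcl2 (1.72 and 1.37), Akr1c12 (1.37 and 1.15), Mst1 (1.10 and 1.04) and H2-Q7 (0.69 and 0.68) had no call for the change.

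**Figure D5:**
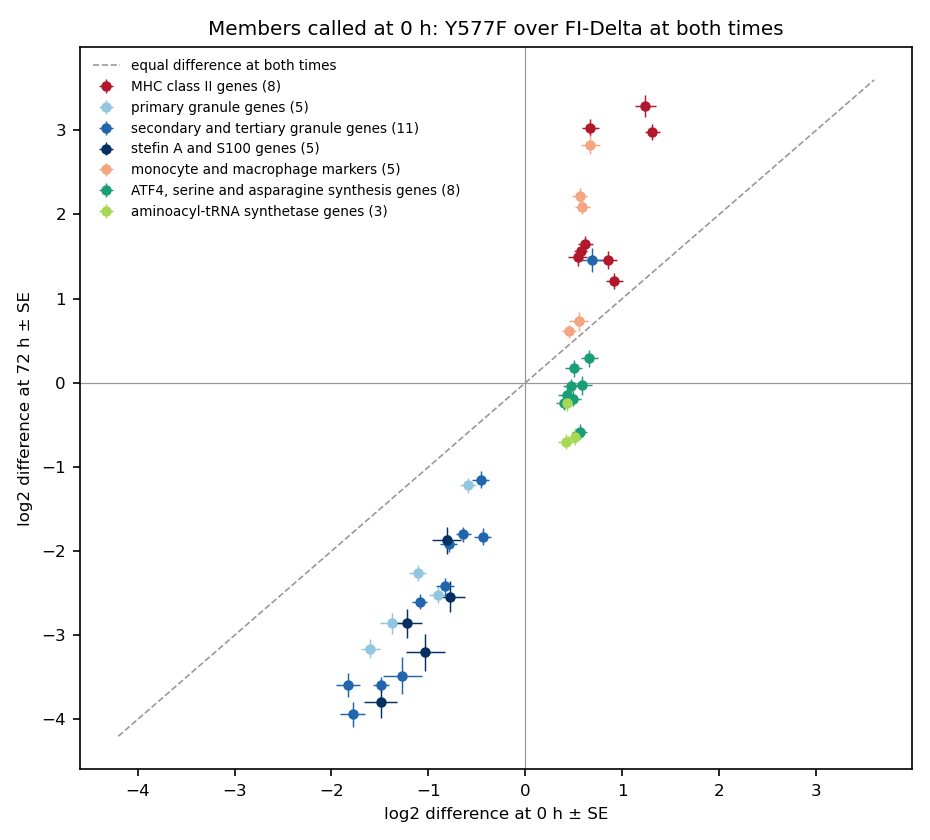
Log2 difference between the lines (Y577F over FI-Delta) at 0 h (x axis) and at 72 h (y axis), each with its SE, for members of 7 lists that were called at 0 h. The dashed line marks equal differences. Granule genes other than Fpr2 lie below the line on the lower left (Camp at -1.78 and -3.94), class II genes above it on the upper right (H2-Eb1 at 1.24 and 3.29), and ATF4 and synthetase genes at or below 0 at 72 h except Ppp1r15a and Stc2 (0.29 and 0.17).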

How the data were processed

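Per the labels' protocols, total RNA was labelled indirectly with Cy5 or Cy3, and each of the 10 spotted arrays took a pair of RNAs. The deposited values are log2 ratios normalised by the authors. The submitters' processing notes name limma, with no version, and the sources used here do not give the background correction or normalization. Base 2 was assumed, since limma writes log2 ratios. Channel intensities were not used here, so spot depth is not known. Precision is limited by the number of arrays and by the number of separate RNA extracts, which arrays share. With a coefficient for each extract and no dye term, the median SE at 0 h was 0.118, against 0.0871 in the main model.

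Of 23040 spots, 1243 controls were left out, and probes that share a single symbol were averaged. This gave 20243 features, 15097 with a symbol. The technical dye swap of FI-Delta culture 2 was averaged, which left 9 hybridisations. All of them entered a limma model (version 3.58.1, R 4.3.3) with a dye term and 3 coefficients that span the 4 kinds of RNA, moderated by empirical Bayes (5 residual and 6.34 prior degrees of freedom). A 0 h estimate thus also draws on the 7 other arrays. Tests were two-sided, with Benjamini-Hochberg adjustment across the 20243 features and calls at an adjusted p under 0.05. The fit was tested on simulated data for the 0 h comparison (20243 features, 200 of them changed). It called 97% of changes of 1 log2 unit and 100% of changes of 2, and 5.74% of its calls were false. The simulated arrays had independent noise without an effect of shared RNA extracts, and each 0 h difference was kept at 72 h. Changes under 1 log2 unit were not simulated, while the median called difference was 0.52. These rates therefore check the fit and do not carry over to the 287 calls. The p-values treat arrays as independent although they share RNA extracts.

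The labels give culture numbers 1 to 4. FI-Delta was read as 1 and 2 and Y577F as 3 and 4, although the labels of arrays with Y577F in Cy5 put the numbers the other way round. The replicate block uses this reading, with a coefficient for each extract and no dye term. The comparison, its members and the 31 gene lists were chosen with earlier results of these data known. Named genes are the 15 most positive and 15 most negative called genes with the same sign on all 3 arrays, up to 4 called genes of each list (or its 2 largest values), and Cxcl2, H2-Ab1, Ngp, Camp, Elane and the mouse receptor chains. Other list members were added to complete the account of a list, after their values were seen. Promoters are from RefSeq, matched by symbol.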

Additional observations from a re-analysis of the deposited data

Results flagged for a closer look

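The difference between the lines was compared at 0 h and at 72 h by a contrast within the limma model, and 51 of the named genes had a called change (adjusted p under 0.05 over all features). Values are the 72 h difference minus the 0 h difference on the log2 scale. No cause was tested for any of them. The 0 h value enters this contrast with a negative sign, so genes picked for a large 0 h value are not a neutral choice.

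Named genes of the granule lists and of the stefin A and S100 list that were lower at 0 h stood further below at 72 h. They were Ltf (-2.208), Camp (-2.161), Fcnb (-2.103), Ngp (-1.760) and Pglyrp1 (-1.506) of the secondary and tertiary group, Ctsg (-1.621), Elane (-1.562), Prtn3 (-1.476) and Ms4a3 (-1.151) of the primary group, and Stfa1 (-2.303), Stfa3 (-2.167), S100a9 (-1.633) and S100a8 (-1.060) of the stefin A and S100 group. Lta4h (-1.004), Ceacam1 (-0.804) and Ceacam2 (-0.747) went the same way.

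Genes higher at 0 h that stood further above at 72 h included the class II genes H2-Eb1 (2.052), H2-Ab1 (1.670) and H2-Ob (0.611). The macrophage genes Mmp12 (2.165), Ctss (1.659) and Clec7a (1.499) did so too. Of the mast cell and basophil list, Gzmb (1.931), Cpa3 (1.801) and Fcer1a (1.175) did so. In that list of 23 genes, 5 changes were called upward and 3 downward. Also further above were Ccl17 (2.182), Itga2b (1.144), Csf2rb2 (0.851), Akr1c13 (0.669), Tnf (0.499), Klrd1 (0.471), Socs3 (0.401) and Tal1 (0.378).

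Genes higher at 0 h whose difference was smaller or turned at 72 h were Atf4 (-1.139) and Ddit3 (-0.615) of the ATF4 list, the synthetases Yars (-1.146), Lars (-1.122) and Nars (-0.673), the transporters Slc1a4 (-0.817), Slc3a2 (-0.521) and Slc1a5 (-0.510), and Scd1 (-1.344), Tnfsf11 (-0.941) and Il18r1 (-0.513). Sdf2l1, lower at 0 h, moved toward 0 (0.446). Genes without a call at 0 h but with a called change were Prmt1 (0.780) and Csf2ra (0.609) upward and Slc2a3 (-0.798), Prc1 (-0.754), Cdc45 (-0.516) and Nip7 (-0.501) downward.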

How the results depend on the processing

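All 287 features called at 0 h kept their sign in all 20 settings that use the same features, from another scaling to leaving out single arrays. The kept sign is no independent support, since the 287 were picked for a low p on these arrays. Many of the 287 lost the call. The count was 46 (28 higher, 18 lower) with the 3 direct arrays alone and no dye term, 110 (58 and 52) with the dye term, and 445 with array weights, 163 of them lower. Robust moderation gave 294, scale normalization 351, quantile normalization 367, median centring 272 and no dye term 234. With the replicate block, which rests on a reading of the culture numbers and leaves few degrees of freedom, it was 22 (9 higher, 13 lower), against 1060 at 72 h and 440 for the change of the difference. Leaving out single arrays gave 57 to 299 calls at 0 h (29 to 198 higher, 28 to 101 lower), 1403 to 2629 at 72 h and 911 to 1861 for the change. For the 90 named genes, 1618 values under the alternatives stayed on their side of the threshold, 265 lost the call, 4 gained it and 0 reversed. With array weights, 1 lower gene was also called in each of the chemokine, cytokine, TNF superfamily, erythroid and receptor signalling lists, which had 0 lower calls. The causes of these shifts were not tested, apart from the loss of arrays that the settings themselves bring.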

Other observations

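Of the called features with a symbol, 170 stood in none of the lists, and the genes below were picked from them after their values were seen. Lower in Y577F cells in IL-3 were Pgd, an enzyme of the pentose phosphate pathway (-0.79), and the methionine sulfoxide reductases Msrb1 (-0.48) and Msra (-0.41). Also lower were Stom, a membrane scaffold (-0.95), Mxd1, a Max-binding antagonist of Myc (-0.90), and Anxa1, a phospholipid-binding protein of myeloid cells (-0.71). Itgb2l, an integrin chain related to Itgb2, was lower (-0.65), while Itgb2 itself did not pass (-0.17).

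Among higher genes, Lilrb4a (0.73) and Lilr4b (0.56) encode related receptors of myeloid cells whose probes may share signal. Rab27b (0.72) and Sytl3 (0.66) encode partners in the release of secretory granules, Gch1 (0.77) the entry enzyme of tetrahydrobiopterin synthesis and Sqstm1 (0.57) an autophagy adaptor. All of these except Itgb2 passed an adjusted p under 0.05 by limma over all features. They were not part of any list and no group of them was tested.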
